A study of Mus musculus with 54 samples.

Results

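The CIR-2 line of Ba/F3-gp130 cells was compared with the CIR-1 line on 12 of the 27 gene-level arrays of the series, 6 of each line, chosen by their array titles. Ba/F3 cells are an established line of mouse B cell precursors, and the gp130 form used here lives on Hyper-IL-6, a designer cytokine in which interleukin-6 is joined to its receptor so that it acts on gp130 alone. The series held parental cells and 3 lines transfected with a Cargo Internalization Receptor (CIR) construct, and its stated purpose was to see how far the constructs alter the cells. The CIR-1 and CIR-2 arrays were each 3 of unstimulated cells (numbers 1, 3 and 5) and 3 of cells given GFP-PFC emulsion (numbers 2, 4 and 6). All of these cells had been grown with Hyper-IL-6, washed 4 times in PBS and held in serum-free medium for 3 h, and the emulsion arrays were taken after 1 h with 50 µl of emulsion per ml. Parental cells under the same conditions, 6 arrays, served as the common background. The labels do not say how the CIR-1 and CIR-2 constructs differ, what promoter drives them, or whether a line is a clone or a pool. Nor is it stated that a group's arrays hold RNA of separate cultures, so p values measure the spread between these arrays.

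A cargo internalization receptor is an engineered surface protein meant to bind a cargo and carry it into the cell by endocytosis. A perfluorocarbon (PFC) emulsion is a carrier of fluorine that magnetic resonance imaging can detect, and green fluorescent protein (GFP) in the label names the tagged emulsion. Ba/F3 cells are blood cell precursors whose growth rests on cytokine receptors that act through Janus kinases (JAKs) and STAT transcription factors. Lines derived from them by transfection and selection pass through separate growth histories, which the labels do not record here.

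CIR-2 and CIR-1 cells differed by more than the spread between arrays at 676 of 19920 genes, which is 3.39% of the genes tested. Of these, 329 were higher and 347 lower in CIR-2, at an adjusted p under 0.05 in limma with the array number as a block. Those are 1.65% and 1.74% of all genes, and counts of called genes in the lists below are to be read beside these shares. Large differences leaned toward CIR-2: 25 genes differed by 1 or more on the log2 scale, a doubling or more, and 20 of them were higher in CIR-2. Most calls were small, since 84 genes differed by 0.5 or more, and the median difference over all genes was -0.00493. The 6 values of a line lay wholly above the 6 of the other for 419 genes, or 2.10% of those tested. Without the array number as a block 264 genes were called, and without the arrays numbered 1 and 2 there were 419, so the count depends on these choices. Every difference below is CIR-2 minus CIR-1 in log2 signal, with its standard error (SE), and values of single arrays are log2 signals given as the lowest, the median and the highest of 6. Each named gene-level call was repeated under 26 alternative settings, 12 of which leave out 1 array. Calls of Selp, Spp1, Dgkg, Por, Xlr4b and Sly, which rest on exon-level values only, were not repeated in this way. Where a single array is named with an adjusted p, it is the one whose removal raised that p most. Removing other arrays could end the call as well.

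Both lines were close to each other over the whole array. Correlations across genes ran from 0.9943 to 0.999 within a line and from 0.994 to 0.9977 between the lines. Mean signals under 6.28, the typical lower quartile of an array, were not shown to lie above background, and a difference against such a mean is a ratio of signals and a lower bound on the change in RNA. Of the 676 called genes, 14 had both line means under that level and 13 had one. Of the pro-B markers, none of 21 measured was called, and their summed log2 signal was 153.9 to 157.9 on CIR-1 and 153.9 to 156.6 on CIR-2 arrays. The surface marker Cd79b (10.21 in CIR-1, 10.14 in CIR-2) and the leukocyte phosphatase Ptprc (12.23 and 12.28) were bright in both lines. The early B cell genes Ebf1 (5.95 and 5.86), Rag2 (5.28 and 5.31) and Il7r (5.22 and 5.27) lay under the background level in both. These genes were not shown to be expressed in either line. Of the 21 pro-B markers, 16 had a mean above that level in CIR-1 and 15 in CIR-2. Among those above it were Pax5 (7.29 and 7.23) and Tcf3 (10.97 and 10.95). None of 13 T cell and none of 11 NK cell markers was called in limma, and each of these 3 lists had 1 member at an unadjusted p under 0.05.

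**Figure D1:**
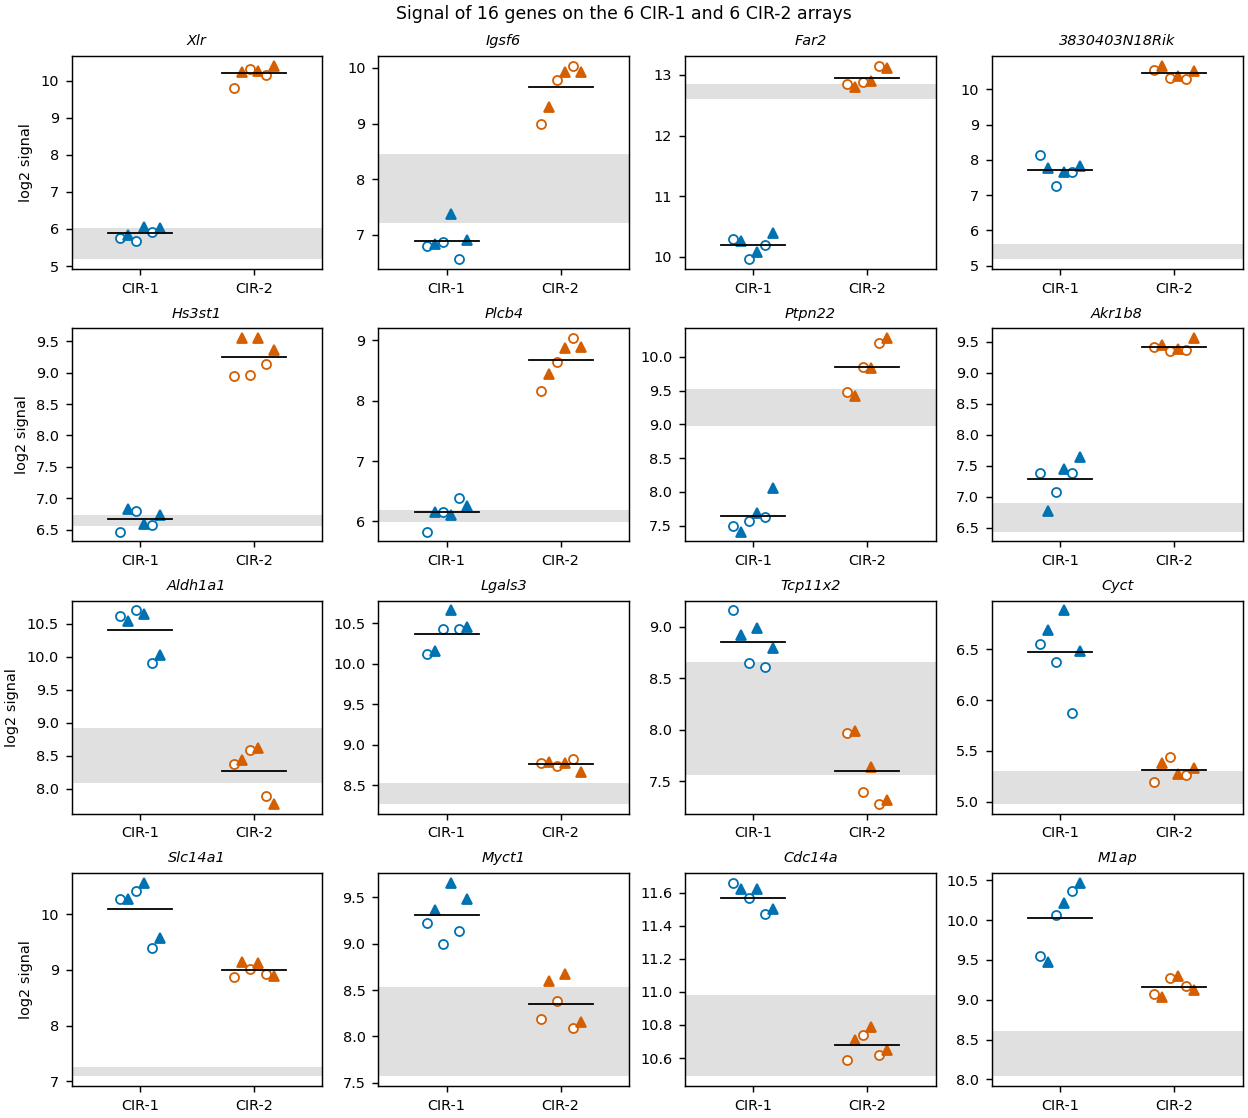
Log2 signal of 16 genes on the 6 CIR-1 (blue) and 6 CIR-2 (orange) arrays. They are the 8 with the largest difference in each direction among called genes whose arrays did not overlap between the lines. Open circles are unstimulated and filled triangles GFP-PFC arrays in the order of their numbers, black bars are line means, the grey band is the range of the 6 parental arrays, and each panel has its own axis. The lack of overlap in all 16 panels follows from that choice. Xlr sits at 5.68 to 6.05 in CIR-1 against 9.80 to 10.40 in CIR-2.

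The largest difference lay in Xlr, an X-linked gene first described in lymphocytes whose relatives are known from male germ cells. Its signal was 5.68, 5.89 and 6.05 on CIR-1 arrays and 9.80, 10.25 and 10.40 on CIR-2 arrays. The lines were far apart, and the CIR-1 values overlapped the parental range of 5.18 to 6.03. The difference was 4.31 (SE 0.12, adjusted p = 1.79e-13), and CIR-1 lay under the background level, so the ratio of signals of 19.9 is a lower bound. The related gene 3830403N18Rik was also higher in CIR-2, at 10.30, 10.45 and 10.67 against 7.27, 7.71 and 8.14 in CIR-1. Here CIR-1 was itself above the parental range of 5.18 to 5.63, so the lines kept the order parental, CIR-1, CIR-2. Its difference was 2.74 (SE 0.11, adjusted p = 3.60e-11). The 2 genes follow each other among the measured genes in the RefSeq order of the X chromosome.

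Their promoters are shown because they differ little from each other. Each sequence is RefSeq's, build GRCm38.p6, from 250 bases before to 50 bases after the gene's start. It is written 5′ to 3′ on the gene's own strand, and capitals mark the longest run that both share letter for letter, 102 bases. Xlr lies at chrX:53797657-53797956 on the minus strand and 3830403N18Rik at chrX:56136322-56136621 on the plus strand.
Xlr: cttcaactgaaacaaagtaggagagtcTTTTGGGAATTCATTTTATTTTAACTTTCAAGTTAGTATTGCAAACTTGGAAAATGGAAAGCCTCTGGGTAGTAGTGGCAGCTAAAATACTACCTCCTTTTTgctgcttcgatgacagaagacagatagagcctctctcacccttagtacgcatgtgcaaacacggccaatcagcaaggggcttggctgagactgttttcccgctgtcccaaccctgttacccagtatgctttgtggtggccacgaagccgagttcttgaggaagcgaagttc
3830403N18Rik: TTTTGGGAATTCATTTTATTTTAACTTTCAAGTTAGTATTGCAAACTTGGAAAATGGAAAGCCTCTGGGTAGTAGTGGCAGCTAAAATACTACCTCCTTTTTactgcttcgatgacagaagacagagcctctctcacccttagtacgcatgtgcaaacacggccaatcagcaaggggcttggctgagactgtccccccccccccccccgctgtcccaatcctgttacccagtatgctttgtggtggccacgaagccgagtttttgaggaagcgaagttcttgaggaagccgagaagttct
In a local alignment, 263 of 283 columns held the same base, an identity of 92.9%. Since members of this family are alike, signal that a probe set takes from a related copy cannot be told apart from signal of the named gene.

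Other members of the family did not share one direction. On the exon-level arrays, where a gene's value is the median of its probe sets, Xlr4b was lower in CIR-2, at 8.10 to 9.21 against 9.71 to 10.17 in CIR-1 (difference -1.50, SE 0.15, adjusted p = 2.00e-05 in limma). Xlr3a (difference 0.0041), Xlr5a (-0.024), Xlr3b (-0.26) and Slxl1 (0.24) did not pass. Of the 90 probe sets named for Sly, a Y-linked relative present in many copies, 11 were called. They differed by 3.77 to 3.86, held only 2 distinct sets of values, and may take signal from related copies, which cannot be told apart. Of the 24 measured genes of the germline and Xlr list, 2 were higher and 1 lower in CIR-2, or 12.5% against 3.39% of all genes. The median difference of the list was 0.035. The lower one was M1ap, a gene of meiosis, at 9.48, 10.13 and 10.47 in CIR-1 against 9.04, 9.14 and 9.30 in CIR-2 (difference -0.86, SE 0.13, adjusted p = 0.000610). The piRNA pathway helicase Tdrd9 did not pass (0.20, SE 0.085, adjusted p = 0.279).

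Several genes of signal transduction were higher in CIR-2. Plcb4, a phospholipase C that splits membrane inositol lipid downstream of G proteins, was at 8.17, 8.76 and 9.04 in CIR-2 and at 5.83, 6.16 and 6.39 in CIR-1. CIR-1 overlapped the parental range of 5.99 to 6.19 and lay under the background level, and the difference was 2.53 (SE 0.092, adjusted p = 5.93e-12). In the list of phospholipase C, inositol and protein kinase C genes, 2 of 26 were higher, 1 was lower and the median was -0.024. The called share was 11.5%, against 3.39% of all genes. The other higher member was Plcb2 (difference 0.18), which was called in 12 of 26 alternative settings and reached an adjusted p of 0.121 without CIR-1 array 3. The lower one, Plcl2 (-0.18), was called in 13, with 0.0789 without CIR-2 array 5. Ptpn22, a phosphatase that restrains antigen receptor signalling in lymphocytes, was at 9.42, 9.85 and 10.28 in CIR-2 and 7.41, 7.60 and 8.06 in CIR-1. All CIR-1 arrays lay under the parental range of 8.98 to 9.52, and the difference was 2.21 (SE 0.072, adjusted p = 1.10e-12). Dock10, an exchange factor for small G proteins that shape the cytoskeleton, was at 9.76, 9.90 and 10.01 against 7.99, 8.59 and 8.96. Both lines lay under the parental range of 10.21 to 10.76, CIR-1 further (difference 1.35, SE 0.11, adjusted p = 6.11e-07).

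Kinase genes moved both ways. Hipk2, a nuclear kinase of stress responses, was at 10.49, 10.56 and 10.64 in CIR-2 and 9.40, 9.62 and 9.77 in CIR-1, with parental arrays at 7.90 to 8.32. It was the 1 called gene of 7 in the Hipk and protein kinase D list (difference 0.96, SE 0.077, adjusted p = 4.57e-07 in limma). The list median was -0.022 and the called share 14.3%, against 3.39% of all genes. Of 26 receptor tyrosine kinases, 1 was higher and 2 were lower, or 11.5% against 3.39% of all genes, with a median of -0.0077. The vascular endothelial growth factor receptor Flt1 was higher in CIR-2, at 9.75, 9.94 and 10.18 against 8.93, 9.09 and 9.42 (difference 0.81, SE 0.075, adjusted p = 2.58e-06). Tie1, an endothelial receptor kinase, was lower, at 9.23, 9.44 and 9.50 against 9.71, 9.83 and 10.18 (difference -0.49, SE 0.055, adjusted p = 2.80e-05). Erbb3 (-0.28) was the other lower one, called in 16 of 26 alternatives and at an adjusted p of 0.121 without CIR-2 array 6.

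Among the genes with the largest positive differences were some of the blood cell surface. Igsf6, an immunoglobulin-like membrane protein of myeloid cells, was at 9.0, 9.86 and 10.04 in CIR-2 and 6.56, 6.86 and 7.37 in CIR-1 (difference 2.77, SE 0.20, adjusted p = 1.65e-07). The parental range of 7.22 to 8.46 lay between the lines and touched CIR-1. Clec12a, an inhibitory C-type lectin receptor of myeloid cells, was at 7.51, 7.81 and 8.02 against 5.97, 6.13 and 6.47 (difference 1.63, SE 0.21, adjusted p = 0.000151), both under the parental range of 8.52 to 10.00. The CIR-1 mean of Clec12a lay under the background level, so its difference is a lower bound. Clec5a, an activating lectin receptor, had the same order, at 7.17, 7.48 and 8.03 in CIR-2, 6.13, 6.26 and 6.95 in CIR-1 and 7.70 to 8.69 in parental cells (difference 1.13, SE 0.17, adjusted p = 0.000584). Of 17 myeloid C-type lectin genes (median 0.041), 3 were higher and none lower in CIR-2 by this test, or 17.6% against 3.39% of all genes. The third was Clec2i (0.28), called in 13 of 26 alternatives, with an adjusted p of 0.118 without CIR-1 array 4. In these bulk samples, fewer cells that express a gene and less RNA per cell cannot be told apart.

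Myeloid markers moved in part with these genes. Of 14 macrophage and monocyte markers, Itgam, an integrin chain (difference 0.54, SE 0.064, adjusted p = 5.45e-05), and Lyz2, a lysozyme (0.38, SE 0.057, adjusted p = 0.000584), were higher in CIR-2, and the other 12 did not pass. The called share was 14.3%, against 3.39% of all genes. The summed log2 signal of the 14 markers was 97.89 to 99.56 on CIR-1 and 98.47 to 99.56 on CIR-2 arrays, so the sums overlapped. Of the 14 markers, 10 lay above the background level in each line, among them Csf1r (7.30 in CIR-1, 7.30 in CIR-2), Cd68 (9.46 and 9.52), Ccr2 (8.77 and 8.58) and Fcgr1 (7.77 and 7.56). Adgre1 (6.16 and 6.14) and Msr1 (5.18 and 5.10) were under it in both lines. Their part in the lectin result was not tested. Of 16 neutrophil granule markers, Ctsg alone was called (6.25%). It was lower in CIR-2 (difference -0.35), called in 21 of 26 alternatives and at an adjusted p of 0.0617 without CIR-2 array 5. Of 17 mast cell and basophil markers, 1 was higher and 2 lower, or 17.6% against 3.39% of all genes. Prss34, a basophil protease, led them (-0.54, SE 0.096, adjusted p = 0.00255). The other calls were weaker, and leaving out any 1 array gave 1 to 2 calls in this list. Mcpt8 (-0.18) was called in 10 of 26 alternatives, with an adjusted p of 0.111 without CIR-1 array 2, and Slc18a2 (0.15) in 13, with 0.113 without CIR-2 array 6.

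Secreted signals differed as well. Il15, a cytokine that sustains NK and memory T cells, was at 9.24, 9.35 and 9.63 in CIR-2 and 7.53, 8.08 and 8.70 in CIR-1, and parental arrays at 8.36 to 9.89 overlapped both (difference 1.34, SE 0.14, adjusted p = 1.26e-05). The chemokine Cxcl10, which draws T cells through the receptor CXCR3, was at 7.99, 8.40 and 9.30 against 7.15, 7.53 and 8.08. The ranges overlapped slightly, but CIR-2 was higher in 6 of 6 same-numbered pairs of arrays (difference 0.88, SE 0.061, adjusted p = 7.05e-08). Cxcl11, a ligand of the same receptor and the next measured gene, was at 7.51, 7.57 and 8.01 against 6.96, 7.19 and 7.40 (difference 0.45, SE 0.064, adjusted p = 0.000394), and was called in 25 of 26 alternatives. Ifitm6, a membrane protein of the interferon-induced transmembrane family, was at 10.36, 10.81 and 10.91 against 8.29, 9.04 and 9.74 (difference 1.67, SE 0.15, adjusted p = 1.94e-06). The measured interferon-stimulated genes did not move with them. None of 21 was called in limma (4 at an unadjusted p under 0.05), and they ranged from -0.15 to 0.18 with a median of -0.0031. None of 19 genes of the NF-kB and inflammatory list passed either (2 at an unadjusted p under 0.05), with a range of -0.30 to 0.65.

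The promoter of Cxcl10 is shown because it holds a motif known from interferon response elements (RefSeq, build GRCm38.p6, chr5:92348840-92349139, minus strand, same window as above). Capitals mark the match to GAAA followed by any 2 bases and again GAAA, searched on both strands.
Cxcl10: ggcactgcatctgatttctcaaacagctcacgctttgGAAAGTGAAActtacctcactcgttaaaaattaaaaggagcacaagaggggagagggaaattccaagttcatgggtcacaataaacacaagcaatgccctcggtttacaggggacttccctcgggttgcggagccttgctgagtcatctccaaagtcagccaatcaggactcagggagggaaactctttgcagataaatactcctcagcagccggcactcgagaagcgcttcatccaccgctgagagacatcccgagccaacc
The motif was found in 1131 of 32851 promoter windows of this length, or 3.44%. The match is a description of the letters and says nothing of binding.

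Metabolic enzymes gave large differences in both directions. Far2, which reduces fatty acyl-CoA to fatty alcohols, was at 12.80, 12.89 and 13.15 in CIR-2 and 9.96, 10.23 and 10.40 in CIR-1 (difference 2.75, SE 0.069, adjusted p = 4.03e-14). CIR-1 lay far under the parental range of 12.60 to 12.85, and CIR-2 slightly above most of it. In the list of lipid droplet and fatty acid genes 1 of 28 was higher and 1 lower, or 7.14% called against 3.39% of all genes, with a median of 0.026. The lower one was the desaturase Fads1 (-0.14), called in 16 of 26 alternatives and at an adjusted p of 0.0587 without CIR-2 array 2. Akr1b8, an aldo-keto reductase, was at 9.35, 9.39 and 9.56 in CIR-2 and 6.78, 7.38 and 7.64 in CIR-1, both largely above the parental range of 6.44 to 6.91 (difference 2.14, SE 0.11, adjusted p = 5.35e-10).

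Aldh1a1 was lower in CIR-2. This enzyme, which oxidizes retinal to retinoic acid, was at 7.77, 8.41 and 8.61 in CIR-2 and 9.90, 10.58 and 10.70 in CIR-1. CIR-1 lay above the parental range of 8.08 to 8.92, which CIR-2 overlapped, and the difference was -2.13 (SE 0.15, adjusted p = 1.10e-07), the largest in this direction. The next measured gene, its close relative Aldh1a7, was at 6.09, 6.14 and 6.28 against 6.40, 6.77 and 7.13 (-0.61, SE 0.10, adjusted p = 0.00134). Its CIR-2 mean lay under the background level. Aldh1a7 was not called on the exon-level values, at -0.46 with an adjusted p of 0.199. Signal shared between these relatives cannot be told apart. Of the 24 aldehyde, aldo-keto and NRF2 target genes, 1 was higher and 3 were lower, or 16.7% against 3.39% of all genes. Their median was -0.0014. None of 17 cholesterol synthesis genes was called in limma (range -0.10 to 0.11), nor any of 21 amino acid response genes (-0.22 to 0.17). At an unadjusted p under 0.05 there were 3 and 4. The hypoxia-regulated gene Ndrg1 was the 1 called member of 23 glycolysis and hypoxia genes (-0.47, SE 0.045, adjusted p = 5.03e-06). That was 4.35% of the list, against 3.39% of all genes.

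Enzymes that modify proteins or sugar chains were among the genes higher in CIR-2. Hs3st1, a sulfotransferase that completes the antithrombin-binding form of heparan sulfate, was at 8.94, 9.25 and 9.55 in CIR-2 and 6.47, 6.66 and 6.83 in CIR-1. CIR-1 overlapped the parental range of 6.56 to 6.73, and the difference was 2.59 (SE 0.066, adjusted p = 4.03e-14). It stood alone among 27 heparan sulfate and proteoglycan genes in being higher, and 1, the linkage enzyme B3gat3 (-0.16), was lower. The called share was 7.41%, against 3.39% of all genes. B3gat3 was called in 20 of 26 alternatives, with an adjusted p of 0.0578 without CIR-2 array 6. Padi3, which converts arginine to citrulline in proteins, was at 10.22, 10.59 and 10.81 against 8.72, 8.93 and 9.24 (difference 1.58, SE 0.070, adjusted p = 9.14e-11), with parental arrays at 8.78 to 9.08. Fam89b was at 10.97, 11.52 and 11.92 against 9.97, 10.03 and 10.11 (1.43, SE 0.11, adjusted p = 4.08e-07), with parental arrays at 9.89 to 10.00. In CIR-2 its signal fell with the array number, from 11.92 on array 1 to 10.97 on array 6. The same-numbered differences ranged from 0.937 to 1.9, so 1.43 is a mean over unlike values. Rbm47, an RNA-binding protein, was at 9.34, 9.55 and 9.93 against 7.67, 8.34 and 8.79 (1.34, SE 0.11, adjusted p = 8.42e-07). The parental range of Rbm47, 9.09 to 9.51, overlapped CIR-2 and lay above CIR-1.

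Genes lower in CIR-2 were led, after Aldh1a1, by Lgals3, a galactoside-binding lectin of the cell surface and cytoplasm. Lgals3 was at 8.67, 8.78 and 8.82 in CIR-2 and 10.12, 10.43 and 10.66 in CIR-1, with parental arrays at 8.27 to 8.53 (difference -1.61, SE 0.068, adjusted p = 4.84e-11). Of 20 galectins and S100 proteins, 2 were higher and 3 lower, or 25% against 3.39% of all genes, with a median of -0.020. S100a4, a calcium-binding protein, was higher in CIR-2 (0.66, SE 0.074, adjusted p = 2.69e-05). Lgals9 was lower (-0.54), and its call was lost without CIR-1 array 2, CIR-2 array 5 or CIR-2 array 6, where the adjusted p rose to 0.0554. Leaving out 1 array at a time gave 3 to 5 calls in this list. Slc14a1, a urea transporter, was at 8.88, 8.97 and 9.14 against 9.40, 10.28 and 10.57 (-1.09, SE 0.13, adjusted p = 5.45e-05), both far above the parental range of 7.09 to 7.25.

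The coagulation factor F5 was at 7.29, 7.43 and 7.86 in CIR-2 and 8.01, 8.37 and 8.69 in CIR-1, both above the parental range of 6.25 to 6.73 (-0.84, SE 0.13, adjusted p = 0.000716). With the transglutaminase Tgm2 (-0.53, SE 0.066, adjusted p = 9.48e-05) and the annexin Anxa2 (-0.26, SE 0.051, adjusted p = 0.00542), 3 of 21 coagulation and fibrinolysis genes were lower and none was higher. That was 14.3% of the list, against 3.39% of all genes. Tgm2 was called in 25 of 26 alternatives and Anxa2 in 22. Cdc14a, a phosphatase that opposes cyclin-dependent kinases, was at 10.59, 10.68 and 10.79 against 11.47, 11.59 and 11.66 (-0.89, SE 0.087, adjusted p = 5.03e-06), and CIR-2 lay within the parental range of 10.49 to 10.98. Cyct, the testis form of cytochrome c, was at 5.20, 5.30 and 5.44 against 5.87, 6.52 and 6.88, and CIR-2 was under the background level (-1.16, SE 0.074, adjusted p = 2.59e-08). Tcp11x2, Myct1 and Tnfaip2 differed by -1.25 (SE 0.097), -0.96 (SE 0.083) and -0.76 (SE 0.11). Lines that did not overlap were a condition for naming genes by rank. Of the 30 genes named by rank in both directions, 29 were called under each of the 26 alternatives, and Aldh1a7 under 25.

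**Figure D2:**
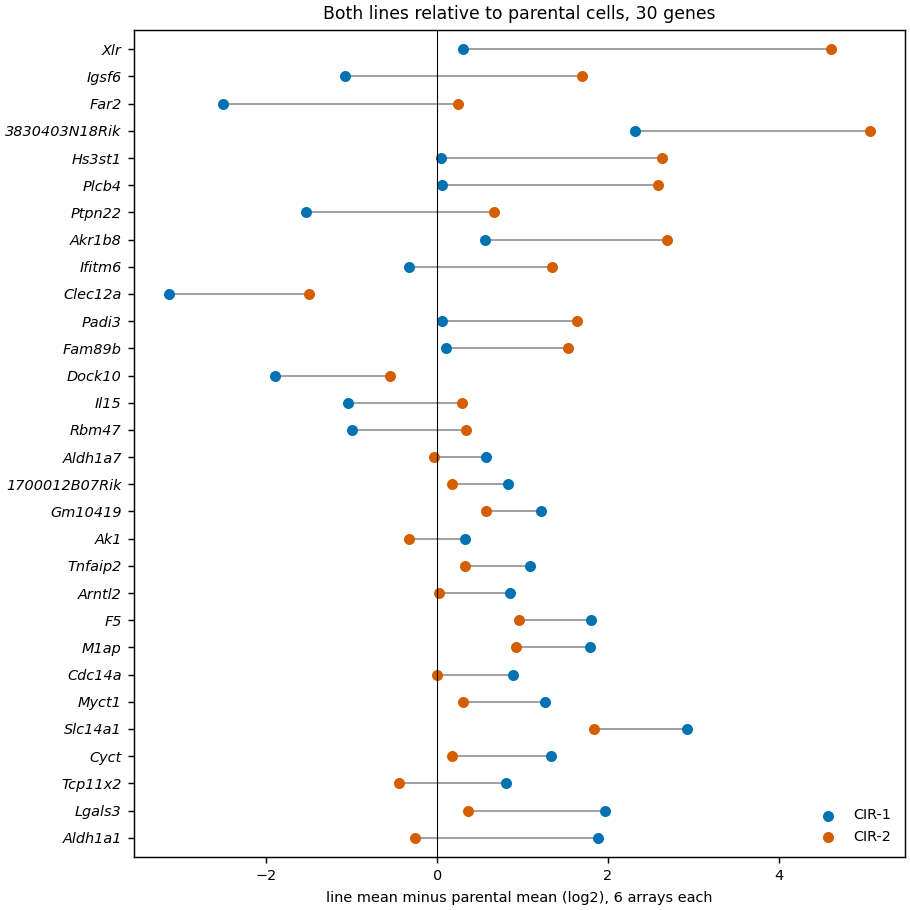
Mean log2 signal of CIR-1 (blue) and CIR-2 (orange) minus the parental mean, 6 arrays a line, for 15 genes in each direction. These had the largest differences among called genes whose arrays did not overlap between the lines. Far2 shows CIR-1 displaced and CIR-2 near parental cells, Xlr and Hs3st1 show the reverse, and Igsf6 shows the lines on opposite sides of 0.

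The parental arrays show which line stood apart from the untransfected cells. Against parental cells 8.45% of all genes were called in CIR-2 and 10.3% in CIR-1. These comparisons share the CIR-1 and CIR-2 arrays with the one above, so they are given side by side and not as independent results. Genes picked because CIR-2 lay above CIR-1 are favoured to lie above parental cells in CIR-2 or below them in CIR-1. The reverse holds for genes picked as lower. That counts below exceed the shares over all genes follows in part from this choice and is no test. Of the 329 genes higher in CIR-2, 141 were above parental cells in CIR-2 (4.65% of all genes were) and 142 were below parental cells in CIR-1 (4.34% of all genes). Only 10 did both, as Igsf6 and Ptpn22, while 56 were called against parental cells in neither line. A missing call does not show a level equal to that of parental cells. Both lines were above parental cells for 30 of these genes, as 3830403N18Rik and Hipk2, and both below for 22, as Clec12a and Dock10. Of the 347 genes lower in CIR-2, 204 were above parental cells in CIR-1 (5.95% of all genes) and 88 were below them in CIR-2 (3.81% of all genes). For 9 of these 347 genes the lines lay on opposite sides, for 52 both were above, for 7 both below and for 64 neither was called. Of the genes above, Far2 was -2.51 in CIR-1 and 0.24 in CIR-2 against parental cells, Xlr 0.30 and 4.61, and Aldh1a1 1.88 and -0.26.

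Some cytokine receptor chains and signal carriers differed between the lines by small amounts, but Il6st, Jak1, Jak2, Tyk2 and Stat3 did not pass. Of 17 measured genes of gp130 and interleukin-3 receptor chains, JAKs and STATs, 1 was higher and 4 were lower in CIR-2, or 29.4% against 3.39% of all genes, with a median of -0.025. Leaving out 1 array at a time gave 2 to 5 calls among them. The mouse gp130 gene Il6st was at 6.27 to 6.39 in CIR-1 and 6.30 to 6.45 in CIR-2, near the background level (difference 0.036, SE 0.040), and the probes are not known to see a transfected gp130. The kinases Jak1 (0.019, SE 0.042), Jak2 (-0.081, SE 0.035) and Tyk2 (-0.022, SE 0.058) did not pass, nor did Stat3 (-0.077, SE 0.040, adjusted p = 0.422).

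The interleukin-3 receptor chain Csf2rb2 was at 12.54, 12.73 and 12.81 in CIR-2 and 12.89, 13.06 and 13.36 in CIR-1 (difference -0.41, SE 0.085, adjusted p = 0.00965). Its near copy Csf2rb differed by -0.23 (SE 0.091, adjusted p = 0.251), and signal shared between these copies cannot be told apart. Stat2, a carrier of interferon signals, was at -0.31 (SE 0.042, adjusted p = 0.000232), called in 23 of 26 alternatives. The remaining calls were weaker. Stat4 was higher (0.35) and Stat5b (-0.19) and its neighbour Stat5a (-0.14) lower, and they were called in 19, 15 and 8 alternatives. Their adjusted p rose to 0.0668 without CIR-2 array 3, 0.0749 without CIR-2 array 3 and 0.139 without CIR-2 array 5. Of 22 STAT target and SOCS feedback genes, the stress gene Gadd45g alone was called (-0.52, SE 0.076, adjusted p = 0.000401), or 4.55% of the list. Of 26 genes of the ERK response, 2 were lower, or 7.69% called against 3.39% of all genes. The transcription factor Etv5 led them (-0.45, SE 0.068, adjusted p = 0.000604). The other, the feedback inhibitor Spred1 (-0.13), was called in 8 of 26 alternatives and lost when any of 10 of the 12 arrays was left out, up to an adjusted p of 0.121 without CIR-2 array 6.

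Genes of uptake, the process the constructs address, differed in the clathrin and lysosomal lists by small amounts. Of 29 clathrin endocytosis genes none was higher and 3 were lower in CIR-2, with a median of -0.036. The called share was 10.3%, against 3.39% of all genes called in either direction and 1.74% called lower. The membrane-cutting GTPase Dnm1 was at 7.79, 7.94 and 8.00 in CIR-2 and 8.28, 8.33 and 8.43 in CIR-1 (-0.41, SE 0.047, adjusted p = 4.16e-05), with parental arrays at 7.69 to 7.96. The coat initiator Fcho1 was at -0.32 (SE 0.041, adjusted p = 0.000117, called in 24 of 26 alternatives). The adaptor Arrb1 (-0.17) was called in 8 alternatives and reached an adjusted p of 0.156 without CIR-1 array 4. None of 26 endosome sorting genes passed in limma (1 at an unadjusted p under 0.05), and they ranged from -0.089 to 0.045. Of 27 lysosomal genes 3 were called, or 11.1% against 3.39% of all genes, with a median of 0.0081. The mannosidase Man2b1 (0.34, SE 0.051) and the acid lipase Lipa (0.27, SE 0.041) were higher and the galactosidase Glb1 (-0.23, SE 0.038) was lower, with adjusted p values of 0.000566, 0.000526 and 0.00111. Of 21 cargo and scavenger receptors, Sort1 alone was called (4.76%). It was lower (-0.18), called in 11 alternatives and at an adjusted p of 0.101 without CIR-1 array 4.

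**Figure D3:**
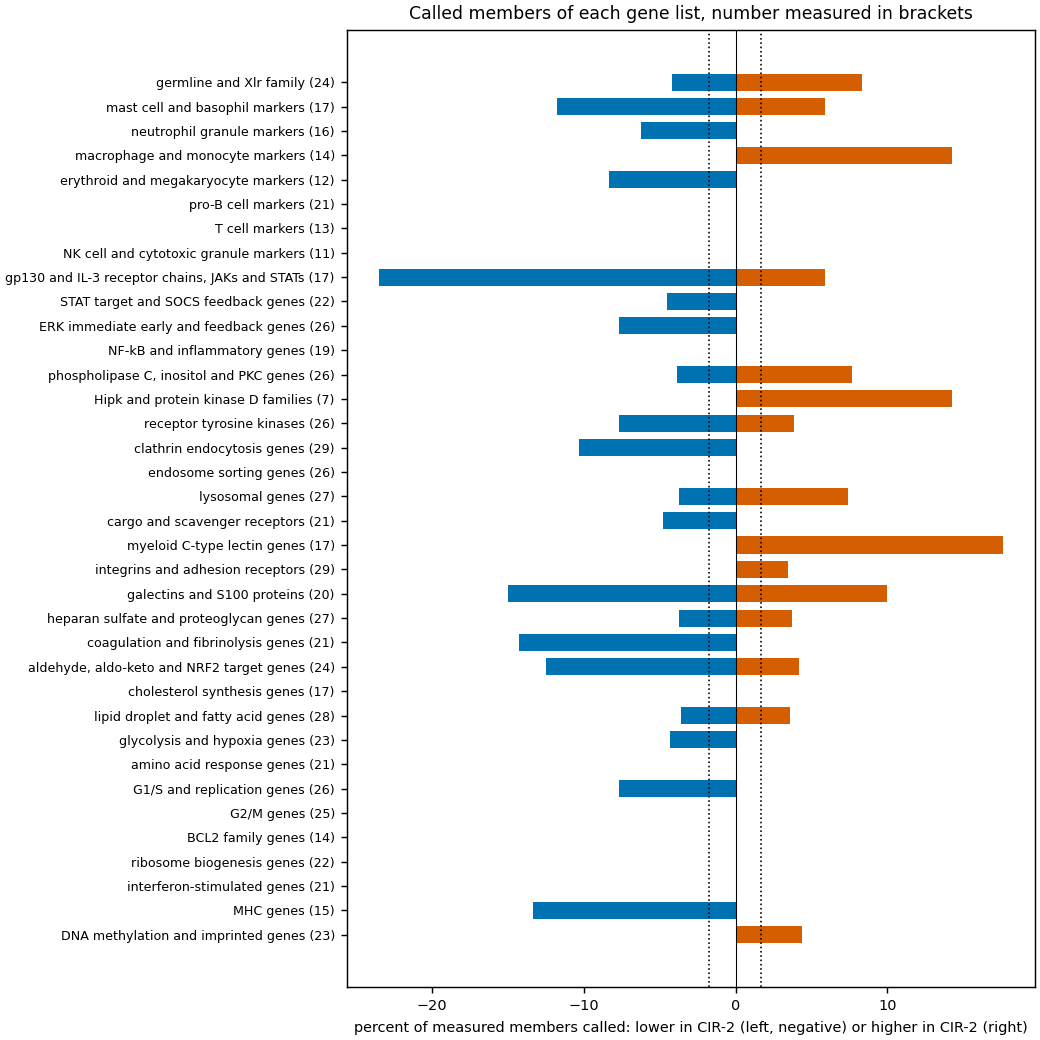
Percent of the measured members of each of 36 gene lists called higher in CIR-2 (orange, right) or lower (blue, left, negative). Dotted lines mark 1.65% of all genes called higher and 1.74% called lower, and lists without a called member have no bar.

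Among the 4 lists of growth and survival genes, only the G1/S and replication list had called members. None of 25 G2/M genes was called in limma (range -0.12 to 0.10), none of 22 ribosome biogenesis genes (-0.086 to 0.19) and none of 14 BCL2 family genes (-0.23 to 0.021), with 4, 5 and 2 at an unadjusted p under 0.05. Of 26 G1/S and replication genes, 2 were lower in CIR-2, or 7.69% called against 3.39% of all genes. The G1 kinase Cdk6 was at 12.36, 12.79 and 12.87 in CIR-2 and 12.68, 13.11 and 13.17 in CIR-1; the ranges overlapped, and CIR-2 was lower in each same-numbered pair (-0.30, SE 0.036, adjusted p = 5.45e-05). The kinase inhibitor Cdkn2c (-0.18) was called in 18 of 26 alternatives and reached an adjusted p of 0.0641 without CIR-1 array 3. Of 15 MHC genes, the peptide transporter chains Tap1 (-0.27, SE 0.044, adjusted p = 0.00137) and Tap2 (-0.16, called in 12 alternatives, adjusted p = 0.0791 without CIR-1 array 1) were lower. That was 13.3% of the list, against 3.39% of all genes. The demethylase gene Tet1 was the 1 called member of 23 DNA methylation and imprinted genes (4.35%), at 7.15, 7.25 and 7.39 in CIR-2 against 6.81, 6.92 and 6.95 (0.37, SE 0.068, adjusted p = 0.00367). Of 29 integrins and adhesion receptors Itgam alone was called, or 3.45%, near the 3.39% of all genes. Of 12 erythroid and megakaryocyte markers the transcription factor Gata1 alone was called, or 8.33%. Gata1 was lower (-0.19), called in 14 alternatives and at an adjusted p of 0.0961 without CIR-2 array 6.

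**Figure D4:**
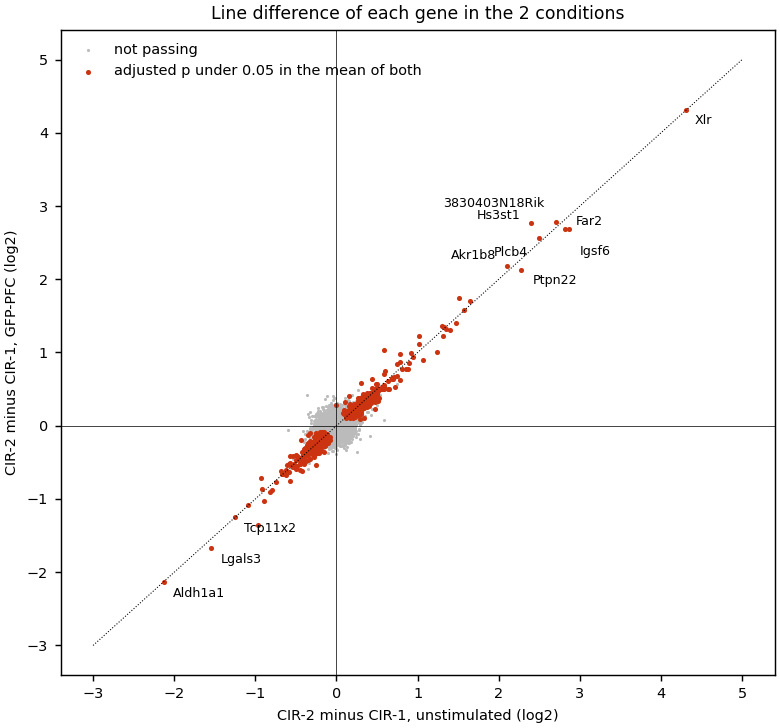
Difference CIR-2 minus CIR-1 of each gene in unstimulated arrays (horizontal) and GFP-PFC arrays (vertical), log2 scale, 3 arrays a line and condition. Red points are the 676 genes called in the mean of both, grey points the other genes and the dotted line equality; the named points lie close to that line, from Aldh1a1 at -2.13 and -2.14 to Xlr at 4.30 and 4.32.

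The emulsion left no called change in the line difference. In unstimulated cells alone 190 genes were called (0.954% of those tested), 118 higher and 72 lower in CIR-2. In GFP-PFC cells alone there were 184 (0.924%), 101 higher and 83 lower, and 138 genes were called in both. These counts lean on single arrays, falling in unstimulated cells to 110, 92 and 97 without CIR-1 array 1, 3 or 5 and to 80 and 87 without CIR-2 array 3 or 5. In GFP-PFC cells they fell to 103 and 119 without CIR-1 array 4 or 6 and to 103 and 81 without CIR-2 array 4 or 6. Of the 676 genes, 675 had the same sign in both conditions, which the mean of both favours by its construction. Over all 19920 genes the differences in the 2 conditions, which share no array, had a correlation of 0.72, given as a description across genes. Tested directly, the change of the line difference with the emulsion was called for 0 genes in limma (0%), with 378 at an unadjusted p under 0.05 and 0 calls under each alternative. Hs3st1 differed by 2.40 unstimulated and 2.77 with GFP-PFC, Cyct by -0.96 and -1.35 and Igsf6 by 2.86 and 2.68. Gask1b, among the 5 genes with the smallest p, was at 0.26 and -0.36 with an adjusted p of 0.9998.

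At exon level, probe sets of one gene did not always differ alike between the lines. In 14201 genes with at least 5 probe sets, each probe set was set against the median of its gene on the same array. Of 198004 probe sets, 87 in 30 genes deviated by 1 or more and were called (0.0439%), most of them in Plcb4 (16 of 38), Arntl2 (11 of 15), Flt1 (11 of 33), Sly (11 of 90) and Ccdc80 (5 of 12). Probe sets are counted in the order of their numbers, which the files do not tie to genome positions. The limits of the stretches below were chosen after the profiles were seen, so they are descriptions without a test.

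Arntl2, a circadian transcription factor, differed by -0.82 at gene level (SE 0.056, adjusted p = 7.03e-08). Its probe sets 1 to 5 differed by -0.28 to 0.31, and sets 6 to 15 by -5.02 to -0.42 with a median of -2.46. In the latter CIR-1 was 2.44 above parental cells and CIR-2 at 0.00, as medians. CIR-3 was also high there, 2.36 above parental cells.

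Flt1 had a median difference of 0.47 over sets 1 to 12 and of 1.81 over sets 13 to 31. In that second stretch CIR-2 was 2.57, CIR-3 2.19 and CIR-1 0.78 above parental cells, as medians. Ccdc80, a gene of a matrix protein, was at 0.65 at gene level (SE 0.055, adjusted p = 9.24e-07). Its sets 5 to 10 differed by 0.65 to 4.54, while sets 1 to 4 lay between -0.27 and 0.17 and sets 11 and 12 between 0.09 and 0.24. CIR-1 was 0.16 above parental cells in the middle stretch and CIR-2 2.02. Arhgef10l had 7 sets, numbers 11 to 17, at 0.54 to 2.96. Its sets 1 to 10 lay between -0.10 and 1.52 and sets 18 to 29 between -0.56 and 0.41, and 3 of the 29 deviated by 1 or more and were called. In Far2 the first set differed by 0.04 and the other 13 by 2.11 to 3.25. In Plcb4 the sets ran from -0.12 to 5.48, with high and low ones interleaved, and 28 of 38 differed by 1 or more.

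**Figure D5:**
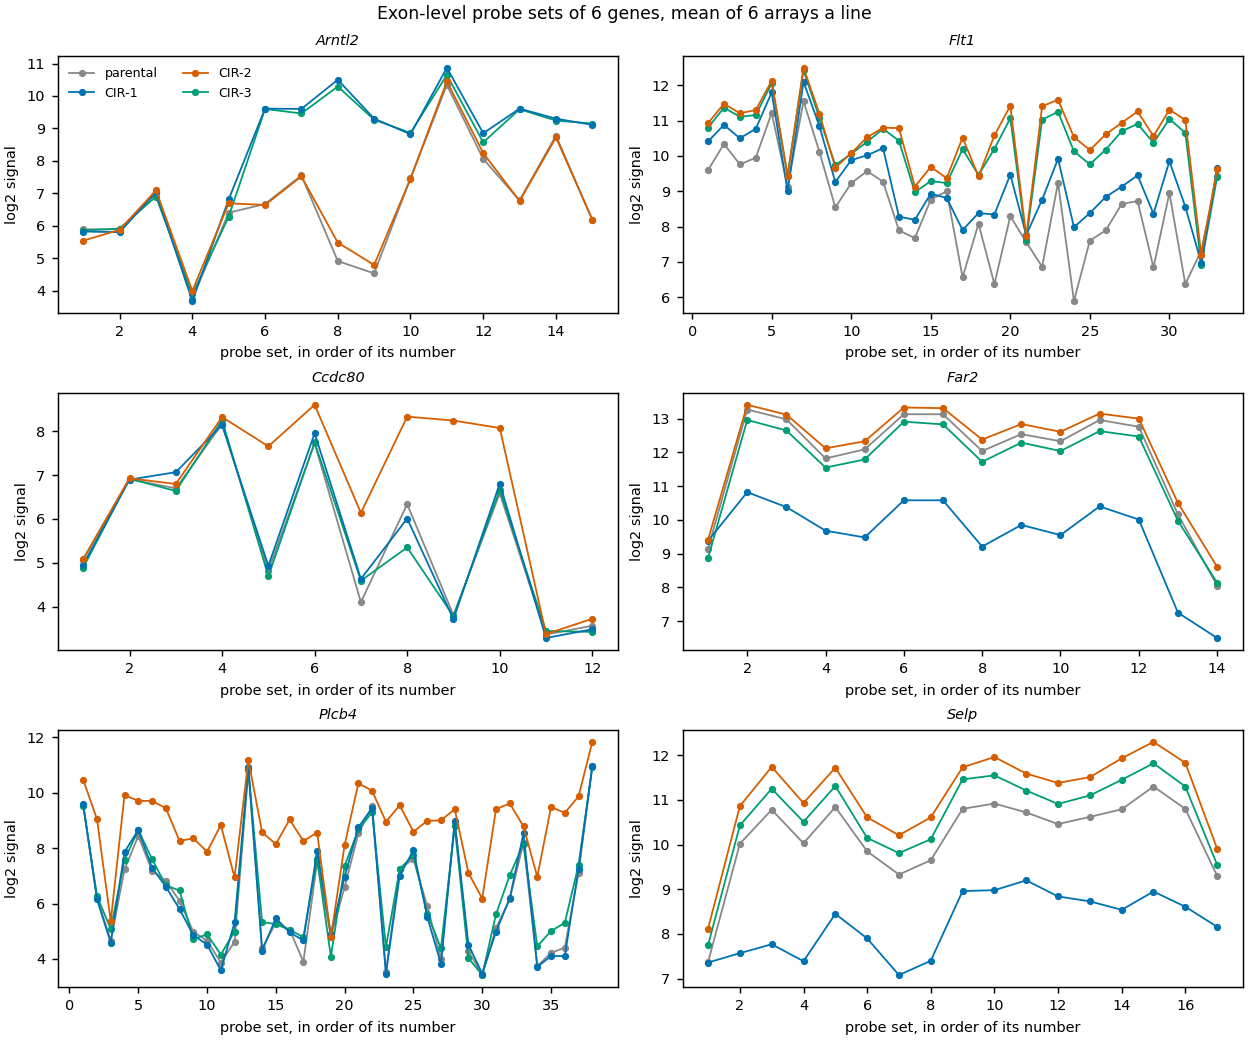
Mean log2 signal of each exon-level probe set of Arntl2, Flt1, Ccdc80, Far2, Plcb4 and Selp, in the order of probe set numbers, for parental (grey), CIR-1 (blue), CIR-2 (orange) and CIR-3 (green) cells, 6 arrays a line. In Arntl2 the lines part from set 6 on, in Ccdc80 CIR-2 stands apart over sets 5 to 10, and in Far2 and Selp CIR-1 lies low in nearly all probe sets.

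Genes with no gene-level value of their own added a few results. Over the medians of 20352 exon-level genes, 352 were called (1.73%), and 14 of them were among 1304 genes without a gene-level name. Selp, the adhesion receptor P-selectin, was at 11.04 to 11.79 in CIR-2 and 8.07 to 8.85 in CIR-1 (difference 3.11, SE 0.094, adjusted p = 5.55e-12 in limma). The parental mean was 10.50, so CIR-1 stood lower and CIR-2 higher, and 16 of its 17 probe sets differed by 1.75 to 3.98. Spp1, the secreted phosphoprotein osteopontin, was at 9.19 to 10.53 against 7.74 to 9.29 (1.47, SE 0.17, adjusted p = 0.000139). Its ranges overlapped slightly, and the parental mean was 10.31. Dgkg, a kinase of the lipid second messenger diacylglycerol, was at 0.61 (SE 0.12, adjusted p = 0.0116) and the cytochrome reductase gene Por at -0.41 (SE 0.062, adjusted p = 0.00194).

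Some called genes lay side by side in the RefSeq gene order of GRCm38.p6, taken over the measured genes. There were 39 runs of neighbours called in one direction, 19 higher and 20 lower in CIR-2, holding 84 genes or 12.4% of those called, and none was longer than 3. Runs of 3 held the zinc finger genes Zfp58 (0.40), Zfp87 (0.31) and Zfp748 (0.29), and Zfp595 (0.41), Zfp953 (0.30) and Zfp456 (0.25). Zfp953 was not called without CIR-1 array 2, CIR-1 array 3 or CIR-2 array 5, where its adjusted p rose to 0.0545. Such zinc finger genes are alike in sequence, and shared signal cannot be told apart. Of windows of 50 consecutive genes, the one with the largest median in size, picked as such, ran from Nlrp4f to Mrpl36 with a median of 0.077. It held 12 called genes, all 12 higher in CIR-2, where 1.65% of all genes were called higher. The window may hold runs named here, so window and runs are not separate results. Signal shared between alike genes cannot be told apart there either. Hipk2 had its neighbour Tbxas1, the thromboxane synthase, beside it (0.88, SE 0.066, adjusted p = 2.46e-07). A run of 3 of other function was Dnajc21 (0.40), Brix1 (0.28) and Rad1 (0.44). Chromosome medians lay between -0.00834 and 0.00329 over 20 chromosomes, so none of these 20 as a whole was displaced by more than that. Chromosomes with few measured genes were left out.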

How the data were processed

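RNA of 27 samples had been hybridised to Affymetrix mouse arrays. The authors deposited a gene-level and an exon-level table from Expression Console, per the labels. Algorithm, log base and genome build are not given in the sources used here. The deposited numbers, from 2.97 to 14.9 at gene level, were read as log2 signal, on which every fold depends. Medians of the 27 arrays ran from 7.521 to 7.646. The number of arrays limits the precision. In both tables, 6703 of 6703 shared probe sets were identical, so the levels are not independent. Of 35556 gene-level probe sets 21789 had 1 symbol, 1621 several and 12146 none. The brightest probe set stood for each of 1015 genes with several, which gave 19920 genes.

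limma 3.58.1 in R 4.3.3 (data.table, version 1.17.8) was fitted to 24 arrays of 4 lines, without the Hyper-IL-6 arrays, with 1 mean per group and the array number (6 levels) as a fixed block, leaving 12 residual degrees of freedom. Tests were two-sided, Benjamini-Hochberg adjusted over all genes, threshold 0.05. The array number was set as the block when the comparison was defined. Same-numbered CIR-1 and CIR-2 arrays deviated together from their group means (r across genes 0.211 to 0.604). Other numbers gave -0.494 to 0.296, so the ranges overlap. Deviations from a group mean cancel within the group, so a high first range lowers the second. These values are a description and do not test the pairing. Named were the 15 largest differences each way among called genes with lines that did not overlap, up to 4 called members a list, any member of the germline and receptor lists, 5 genes a condition contrast, the 10 largest exon deviations and run members. Exceptions chosen after their values were seen were uncalled cell type markers, Ccdc80, Arhgef10l, Selp, Spp1, Dgkg, Por, Sly and the other Xlr genes. The comparison, the 36 lists and the alternatives were chosen with earlier results of these data known. Alternatives covered block, arrays, weights, scaling, dim genes and leaving out each array. On simulated arrays the fit was checked to recover differences of known size. Promoters were aligned with Biopython 1.88 in Python 3.11.15, and figures were drawn with matplotlib 3.10.9.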

Additional observations from a re-analysis of the deposited data

Results flagged for a closer look

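In the 30 genes named by rank, the 6 same-numbered differences between the lines were searched for one far from the others, and chance marks about 1 gene in 20. Marked were 2 genes. The difference of Rbm47 on the arrays numbered 2 was 1.79, the nearest other value was 1.35, and the mean without it was 1.25. The difference of Cdc14a on the arrays numbered 1 was -1.08, the nearest other value was -0.913, and the mean without it was -0.857. Both genes were called under every alternative run.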

How the results depend on the processing

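With the pairing by array number as a block 676 genes were called, against 264 without the replicate block. Without the block the count was 76 in unstimulated and 72 in GFP-PFC arrays (190 and 184 with it), and the block's own part in this was not tested beyond these counts. The 12 compared arrays alone gave 462 calls with the block and 220 without it, by condition 107 and 101 with it and 59 and 56 without it, and 17 exon-level deviations in place of 87. Without the arrays numbered 1 and 2 there were 419 calls, 112 unstimulated, 117 with GFP-PFC and 45 exon-level deviations. Array weights gave 1279, 504 and 398, and exon-level values 352, 90 and 84. Fewer arrays or probe sets went into some of these fits; otherwise the cause was not tested. Leaving out 1 array at a time gave 459 to 630 calls, 80 to 184 unstimulated, 81 to 192 with GFP-PFC, 0 for the change with the emulsion, and 71 to 86 exon-level deviations.

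The share of calls higher in CIR-2 stayed between 43.2% and 57.7%, against 48.7%. Of 147 genes followed through 26 alternatives none changed sign, and 65 were called in each. That held for 42 of 49 genes that differed by 0.5 or more and for 23 of 98 that differed by less.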
